A study of Mus musculus with 9 samples.

Results

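Complement and coagulation factors are the plasma proteins of immune defence and of clotting that the liver makes. The members were 46 genes named in a fixed list, 25 of complement and 21 of coagulation and fibrinolysis, and they were found by gene name among the 52151 entries of the gene table. An entry with a known transcript was present for 42 of the 46, 24 of complement and 18 of coagulation and fibrinolysis, and all 42 passed the minimum level and were tested in each comparison. Cfb, F7 and F10 had no entry of their own. Transcripts of Cfb, the factor B of the alternative pathway, lay in the entry named C2. Those of the clotting proteases F7 and F10 lay in the entry named Proz. The values of C2 and Proz therefore mix these genes. The one entry under the name Klkb1, plasma prekallikrein, held an assembled transcript, and the known transcript lay in the entry named Cyp4v3, whose level of 19.4 to 42.4 FPKM over the 9 libraries therefore mixes both genes. Counting this Klkb1 entry, 14 entries under member names were made of assembled transcripts, stayed at or under 5.90 FPKM and were not used.

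Liver RNA of mice was measured in 3 groups of 3 libraries each. PF mice received an isocaloric liquid control diet, AF mice received the Lieber-DeCarli diet, a liquid diet with alcohol, and mice of the last group received the alcohol diet with daily intraperitoneal MNA at 50 mg/kg. Feeding lasted 5 weeks, and the age is labelled as 8 weeks in all groups. PF and AF are labelled C57BL/6. The strain label of the MNA libraries counts up by 1 from library to library, and MNA is not spelled out in the labels. Levels are in FPKM, in which the fragments of a gene are scaled to its length and to the size of the library, so that levels of different genes can be set side by side. Apart from replicate numbers nothing in the labels says that libraries came from separate animals, and p-values measure the spread between these libraries. In bulk liver, fewer cells of a type and less RNA per cell cannot be told apart.

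Complement is started by C1q on antibody complexes or by mannose-binding lectins on sugars, and both routes cleave C4 and C2 to form the enzyme that splits C3. Cleavage of C5 then lets C6, C7, C8 and C9 assemble into the pore of the membrane attack complex. In coagulation, a series of proteases ends in thrombin, which turns fibrinogen into fibrin, while antithrombin, heparin cofactor II and the protein C system restrain it and plasmin dissolves the clot. Hepatocytes make most of these proteins, whereas C1q comes mainly from macrophages, and fibrinogen and C3 belong to the acute phase response of the liver.

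The libraries differed in depth, acute phase genes, intron signal and cell type markers. Sequencing depth differed by at most 1.42 times, as computed from the constant that scales the circRNA counts. PF 1 and AF 2 carried the highest levels of the acute phase gene Saa1, at 184 and 214 FPKM, and the other 7 libraries lay between 1.64 and 42.8 FPKM. The summed level of lncRNAs inside introns was 9433 FPKM in AF 3 and 8934 FPKM in AF with MNA 1, against 2477 to 4937 FPKM in the others. Hepatocyte markers summed to between 21139 and 28179 FPKM in PF and AF, with AF against PF log2 FC of -0.64 for Ttr, -0.56 for Apoa1 and 0.52 for Ahsg among the 8. Every neutrophil and lymphocyte marker was under 1 FPKM in every library. The 8 sinusoidal endothelial markers summed to 34.4 to 42.3 FPKM in PF, 43.5 to 56.6 FPKM in AF and 49.8 to 58.1 FPKM in AF with MNA, without overlap between PF and the alcohol-fed libraries. Against PF, their means were higher for 7 of 8 in AF and 8 of 8 in AF with MNA. Of all genes, 53.5% and 52.8% had a lower mean in these comparisons. None of the markers had a limma adjusted p under 0.05. An unadjusted limma p under 0.05 was found for 2 and 5 of the 8, beside 11.7% and 14.5% of all genes. The part of these markers in the results was not tested.

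The level of the 42 members covered a wide range. C3, the central component that all routes cleave, had the highest median over the 9 libraries at 1666 FPKM. It was followed by the fibrinogen gamma chain Fgg at 846 FPKM and the beta chain Fgb at 507 FPKM, then by Vtn, vitronectin, at 503 FPKM and Kng1, kininogen, at 425 FPKM. The levels of Fgb and Vtn overlapped across libraries, from 445 to 1038.5 FPKM and from 446 to 679 FPKM. C1qc was lowest at 2.86 FPKM. A median above 100 FPKM was found for 20 members, 10 of each arm. The highest library was under 2 times the lowest for 22 members and over 4 times for 7, of which 6 were complement genes.

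Between AF and PF, all 6 terminal pathway genes among the members had a lower mean in AF, with log2 FC from -2.31 for C6 to -0.37 for Hc. No member of either arm passed limma at a Benjamini-Hochberg adjusted p under 0.05, where 0.326% of the 12268 genes tested did. At an unadjusted limma p under 0.05 there were 4 complement members (C6, C8g, C9 and C8a) and 1 coagulation member (F11), beside 11.7% of all genes. All 5 were lower in AF, as were 6.58% of all genes at that p. The threshold of the methods, an unadjusted p under 0.05 with a log2 FC of group means above 1 or below -1, was passed by C6 and C9 of the 24 complement members and by F11 of the 18 others, beside 4.3% of all genes and 2.35% that passed it as lower. The mean was lower in AF for 18 of 24 complement members and for 5 of 18 coagulation members, beside 53.5% of all genes. PF 1 was the highest PF library for 16 of the 24 complement members, and the count was not recomputed without it. The median log2 FC was -0.14 in complement, 0.16 in coagulation and fibrinolysis and -0.03 over all genes. With 1 library left out, the complement median ran from -0.30 without AF 2 to -0.04 without PF 1. Groups did not overlap for 6 of the 42 members, a share below the 18.3% of all genes.

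C6, the first component to join C5b, had the largest difference of all members. It was at 28.2, 36.3 and 17.2 FPKM in PF 1 to 3, at 2.98, 10.2 and 3.29 FPKM in AF, and at 3.25, 8.42 and 9.27 FPKM in AF with MNA. All 6 alcohol-fed libraries lay below all 3 PF libraries. The PF mean was 27.2 ± 9.60 FPKM and the AF mean 5.49 ± 4.09 FPKM (SD, n = 3), or 20.2% of the PF mean with a log2 FC of -2.31, which ran from -3.12 without AF 2 to -2.01 without AF 1 when 1 library was left out. On the log2(FPKM + 1) scale the limma estimate was -2.23 ± 0.46 (SE), with an unadjusted p of 0.00217 and an adjusted p of 0.144. AF with MNA was at 6.98 ± 3.26 FPKM (SD, n = 3), a log2 FC of -1.96 against PF with a limma adjusted p of 0.154.

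C9, whose copies form the pore, was at 179.8, 112 and 97.7 FPKM in PF, at 45.2, 98.8 and 29.5 FPKM in AF, and at 39.9, 85.8 and 79.2 FPKM in AF with MNA. AF 2 reached just above PF 3, so that AF and PF overlapped by 1 library, whereas all 3 MNA libraries lay below PF. The log2 FC was -1.17 in AF against PF (limma p 0.0284, adjusted p 0.37) and -0.93 in AF with MNA against PF (limma p 0.0394, adjusted p 0.323). C8a, the alpha chain of C8, was at 83.9, 57.2 and 51.9 FPKM in PF, 20.7, 56.9 and 25.2 FPKM in AF and 19.8, 46.04 and 42.4 FPKM in AF with MNA. AF 2 again reached above PF 3, and the log2 FC was -0.91 in AF (limma p 0.0405, adjusted p 0.402).

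C8b, the beta chain, was at 51.6, 42.3 and 25.4 FPKM in PF, 21.9, 31.8 and 19.8 FPKM in AF and 19.8, 40.8 and 28.3 FPKM in AF with MNA, with overlap in both comparisons. C8g, the gamma chain, was at 124, 113 and 120.5 FPKM in PF, against 83.6, 82.3 and 86.6 in AF. Its AF mean was 70.6% of the PF mean without overlap, with a limma p of 0.00565 and an adjusted p of 0.213. With MNA it was at 66.4, 111 and 103 FPKM, again below every PF library. Hc, which encodes C5, was at 269.6, 160 and 151 FPKM in PF, 144, 185 and 119 FPKM in AF and 128, 158 and 152 FPKM in AF with MNA, and its groups overlapped. C7, which also joins the complex but is no member, was at 0.49, 0.32 and 0.64 FPKM in PF, against 0.73, 0.69 and 0.23 in AF, a log2 FC of 0.19 with overlap at a level near the minimum tested. The 6 members had a median log2 FC of -0.81 in AF and -0.63 in AF with MNA, both against the same PF libraries. The ratio of C6 to C9 was between 0.157 and 0.323 in PF and between 0.066 and 0.117 in the 6 alcohol-fed libraries.

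**Figure D1:**
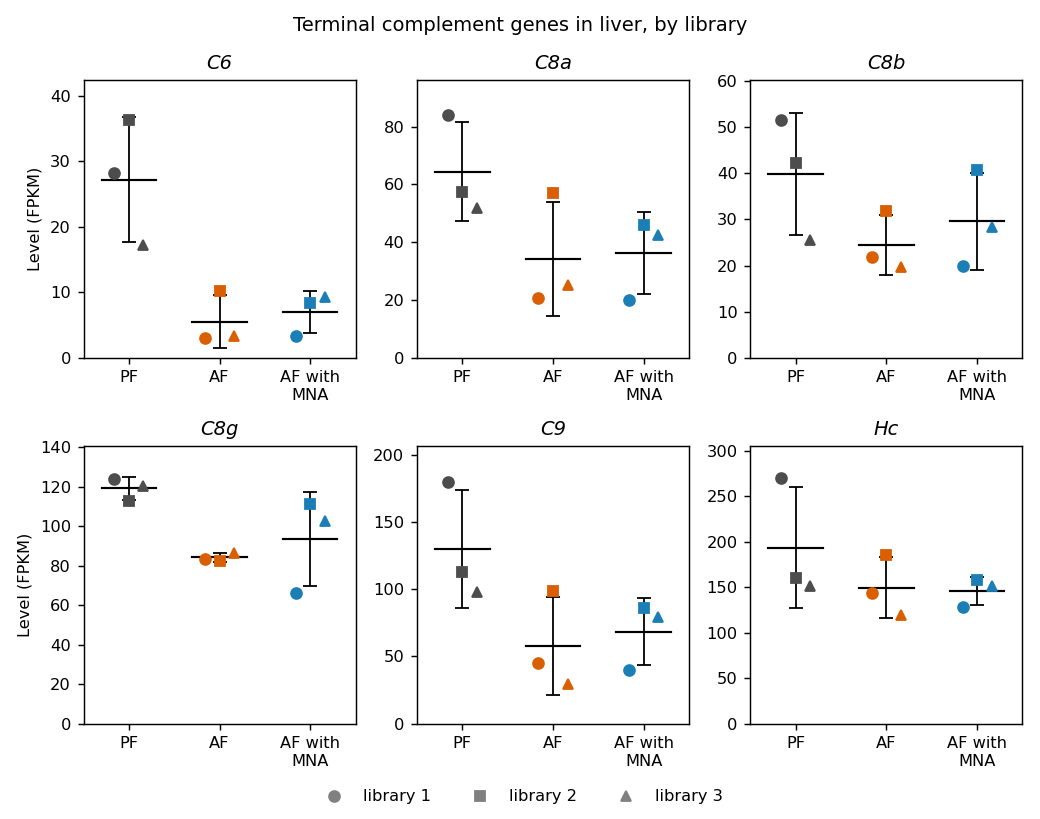
Level in FPKM (vertical axes, from 0) of the 6 terminal complement genes in the 3 libraries of PF, AF and AF with MNA (symbols by library number), with the group mean (line) and SD (bars). C6 and C8g lie lower in all 6 alcohol-fed libraries than in any PF library, while AF 2 reaches the PF range for C8a, C8b, C9 and Hc.

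Library differences moved with these genes. AF 1, AF 3 and AF with MNA 1 were the lowest libraries for C6, C8a and C9. AF 3 and AF with MNA 1 are also those with the highest intron signal, whereas AF 1 was at 3802 FPKM, within the range of the others, and the part of intron signal in the result was not tested. PF 1 was the highest PF library for 16 of 24 complement members, or 66.7% where 33.9% of all genes had their highest PF value there. AF 2 was the highest AF library for 17 of 24, or 70.8% beside 21.7% of all genes. These are the 2 libraries highest in acute phase genes. Without both, the log2 FC was -3.09 for C6 and -1.49 for C9, and the number of complement members past the threshold of the methods was 5 of 24, namely C6, C9, C8a, C1qc and Mbl1, beside 4.53% of all genes in that setting. No member passed the limma adjusted p in that setting. With 1 library left out, C6 passed the threshold of the methods each time, whereas C9 passed it without AF 2 or without PF 3 and not without AF 1, AF 3, PF 1 or PF 2. The log2 FC of C9 ran from -1.80 without AF 2 to -0.85 without AF 3.

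C6 and C9 lie on chromosome 15 and C8a and C8b beside each other on chromosome 4 on opposite strands. The sequences before their starts are shown because these 4 genes had the lowest log2 FC of the terminal pathway. They are from RefSeq for GRCm38.p6, end before the first annotated exon base and read 5′ to 3′ on the strand of the gene. Capitals mark matches to GTTAAT, the core of a site of the hepatocyte factor HNF1, or to TTGCNNAA, a C/EBP type site, on either strand. The regions are chr15:4726960-4727174 (plus strand) for C6, chr15:6445096-6445326 (plus) for C9, chr4:104876399-104876648 (minus) for C8a and chr4:104766067-104766316 (plus) for C8b.
C6: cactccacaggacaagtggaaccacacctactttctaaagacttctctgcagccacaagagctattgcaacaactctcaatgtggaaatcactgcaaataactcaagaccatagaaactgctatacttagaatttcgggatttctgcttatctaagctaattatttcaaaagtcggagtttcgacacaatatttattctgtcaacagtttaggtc
C9: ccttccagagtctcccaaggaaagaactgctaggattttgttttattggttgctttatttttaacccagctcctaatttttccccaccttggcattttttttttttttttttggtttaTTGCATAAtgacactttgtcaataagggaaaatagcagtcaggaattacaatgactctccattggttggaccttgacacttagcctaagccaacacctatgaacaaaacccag
C8a: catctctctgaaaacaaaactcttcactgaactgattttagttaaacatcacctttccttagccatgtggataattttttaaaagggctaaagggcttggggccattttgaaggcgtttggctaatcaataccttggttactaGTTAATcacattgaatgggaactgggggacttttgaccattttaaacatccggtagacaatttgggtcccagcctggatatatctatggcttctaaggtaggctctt
C8b: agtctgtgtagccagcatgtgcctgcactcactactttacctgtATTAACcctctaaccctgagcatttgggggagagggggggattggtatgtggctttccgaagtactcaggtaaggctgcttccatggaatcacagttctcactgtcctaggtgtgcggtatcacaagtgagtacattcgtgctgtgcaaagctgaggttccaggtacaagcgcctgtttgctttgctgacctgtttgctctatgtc
A GTTAAT match was present in C8a and C8b and a TTGCNNAA match in C9, and neither motif was found in the C6 window. In the 250 bases before the start, GTTAAT was held by 10 of the 35 members with a sequence and by 6.43% of 32851 windows of all genes, and TTGCNNAA by 9 of 35 and by 9.56%.

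Of the other complement genes, C1rl, a C1r-like protease, was the member of the C1 group with the smallest p in AF. It was at 5.28, 5.07 and 5.69 FPKM in PF, 3.67, 2.32 and 4.89 FPKM in AF and 4.01, 4.27 and 3.79 FPKM in AF with MNA. All 6 alcohol-fed libraries lay below PF, with limma p of 0.0586 (adjusted 0.447) in AF and 0.0102 (adjusted 0.224) in AF with MNA. C6, C8g and C1rl were the 3 of 24 complement members, or 12.5%, with all 6 alcohol-fed libraries below PF, beside 5.21% of all genes.

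C3 was at 2102, 998 and 1057 FPKM in PF, 2109.6, 2121 and 1554 FPKM in AF and 1886, 1666 and 1581 FPKM in AF with MNA. PF 1 stood among the alcohol-fed libraries, and the log2 FC of 0.48 in AF had a limma adjusted p of 0.582. With 1 library left out it ran from 0.29 without PF 2 to 0.91 without PF 1. Of the lectin pathway, Mbl1, mannose-binding lectin A, was at 4.85, 6.15 and 10.6 FPKM in PF, against 3.06, 8.46 and 4.11 in AF, with overlap and a limma adjusted p of 0.703, and at 4.77, 6.12 and 6.62 FPKM with MNA. Mbl2, mannose-binding lectin C, was between 30.1 and 58.3 FPKM and the lectin pathway protease Masp2 between 11.8 and 21.2 FPKM over the 9 libraries, and both overlapped in all 3 comparisons. The 5 regulators Cfi, C4bp, Serping1, Clu and Vtn all had a lower mean in AF, beside 53.5% of all genes. Their log2 FC ran from -0.46 to -0.07. The lowest was C4bp, which binds C4b and helps to inactivate it, at 59.0, 46.8 and 57.9 FPKM in PF, against 36.5, 51.4 and 30.9 in AF, with overlap at AF 2, and at 41.4, 36.5 and 49.3 FPKM with MNA. Cfi, the protease that cleaves C3b and C4b, was between 119 and 203 FPKM, Serping1, the C1 inhibitor, between 98.8 and 198 FPKM, and Clu, clusterin, which binds the terminal complex, between 198 and 364 FPKM, each with its highest value in PF 1. PF 1 was the highest PF library for all 5 regulators. For Cfi, PF 2 and PF 3 were at 126 and 134 FPKM, below the AF mean of 147 FPKM. The same held for Serping1 (98.8 and 128 against 134 FPKM), Clu (227 and 249 against 259 FPKM) and Vtn (474 and 485 against 500 FPKM). For C4bp both lay above the AF mean of 39.6 FPKM. C4b ran from 165 to 383 FPKM, again highest in PF 1, and the entry of C2 with Cfb from 94.5 to 131 FPKM. C1s1, the protease of C1 that cleaves C4 and C2, was at 137, 119 and 109.9 FPKM in PF, against 115, 114 and 116 in AF, and at 123, 90.6 and 93.9 FPKM with MNA, and C1ra, its partner protease, was between 63.8 and 79.2 FPKM. C1ra has the near-identical copy C1rb, so that its reads may be split.

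The 3 chains of C1q did not move together. C1qa was at 15.6, 16.9 and 14.0 FPKM in PF, 19.0, 27.2 and 14.8 FPKM in AF and 17.4, 24.5 and 3.80 FPKM in AF with MNA. C1qb was at 26.4, 23.9 and 4.41 FPKM in PF, 23.4, 39.7 and 18.0 FPKM in AF and 24.7, 25.9 and 25.2 FPKM in AF with MNA. C1qc was at 5.80, 6.12 and 2.06 FPKM in PF, 0.33, 7.15 and 0.29 FPKM in AF and 0.86, 7.74 and 2.86 FPKM in AF with MNA. C1qb was low in PF 3 where C1qa was not, and C1qa was low in AF with MNA 3 where C1qb was not. The ratio of C1qa to C1qb ran from 0.151 to 3.17 over the libraries, and that of C1qc to C1qb from 0.014 to 0.467. In AF 1 and AF 3, C1qc was under 0.5 FPKM, the minimum mean for a test. The 3 genes lie beside each other on chromosome 4, and how reads were divided between their entries was not tested. No chain passed the threshold of the methods in any of the 3 comparisons with all libraries. C1qc had a log2 FC of -0.85 in AF against PF, which was -3.91 and past the threshold without AF 2, and -0.32 without AF 3 or -0.33 without AF 1. The macrophage markers summed to 82.3 to 85.8 FPKM in PF, 55.4 to 119.5 FPKM in AF and 88.8 to 111 FPKM in AF with MNA, with the highest sum in AF 2 and the lowest in AF 3. Single markers went in both directions in AF against PF, 4 of the 8 tested with a higher and 4 with a lower mean, with log2 FC from -0.64 for Clec4f and -0.52 for Vsig4 to 1.25 for Marco. Marco passed the threshold of the methods as higher in AF (limma p 0.0274, adjusted p 0.365), and Marco and Lyz2 did in AF with MNA against PF, with log2 FC of 1.58 and 1.29 (limma adjusted p 0.152 and 0.216). The part of macrophage markers in the C1q values was not tested.

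Of the coagulation genes, the 3 fibrinogen chains moved together from library to library but did not separate the groups. Fga was at 634, 322 and 378 FPKM in PF, 509, 971 and 383 FPKM in AF and 362, 412 and 398.5 FPKM in AF with MNA. Fgb was at 827, 445 and 507 FPKM in PF, 654, 1038.5 and 458 FPKM in AF and 445, 512 and 489 FPKM in AF with MNA. Fgg was at 1441, 792 and 846 FPKM in PF, 1112, 2028 and 824 FPKM in AF and 802, 884 and 830.25 FPKM in AF with MNA. AF 2 was highest and PF 1 next for all 3 chains, and the MNA libraries lay close together. The ratio of Fgg to Fgb stayed between 1.67 and 1.95, and that of Fga to Fgb between 0.725 and 0.935.

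The log2 FC in AF against PF was 0.48 for Fga, 0.27 for Fgb and 0.36 for Fgg, and none passed limma (lowest adjusted p 0.727). Without AF 2 it was near 0 or below, and the values of Fgb and Fgg changed sign, whereas without PF 1 it was 0.83 for Fga, 0.59 for Fgb and 0.69 for Fgg. The same 2 libraries led the acute phase genes, whose summed level was 2661, 767 and 1266 FPKM in PF, against 1854, 3149 and 1198 in AF, and the part of that difference in the fibrinogen values was not tested. PF 1 and AF 2 held the highest levels for 7 of the 11 acute phase genes with an entry, and not for Apcs, Hamp, Saa3 and Saa4. Apcs, serum amyloid P, was at 104, 43.1 and 43.15 FPKM in PF, against 0.05, 0.48 and a listed 0 in AF, and at 34.2, 19.3 and 0.06 FPKM with MNA. It was the 1 acute phase gene past limma in AF against PF, with an adjusted p of 0.00397.

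**Figure D2:**
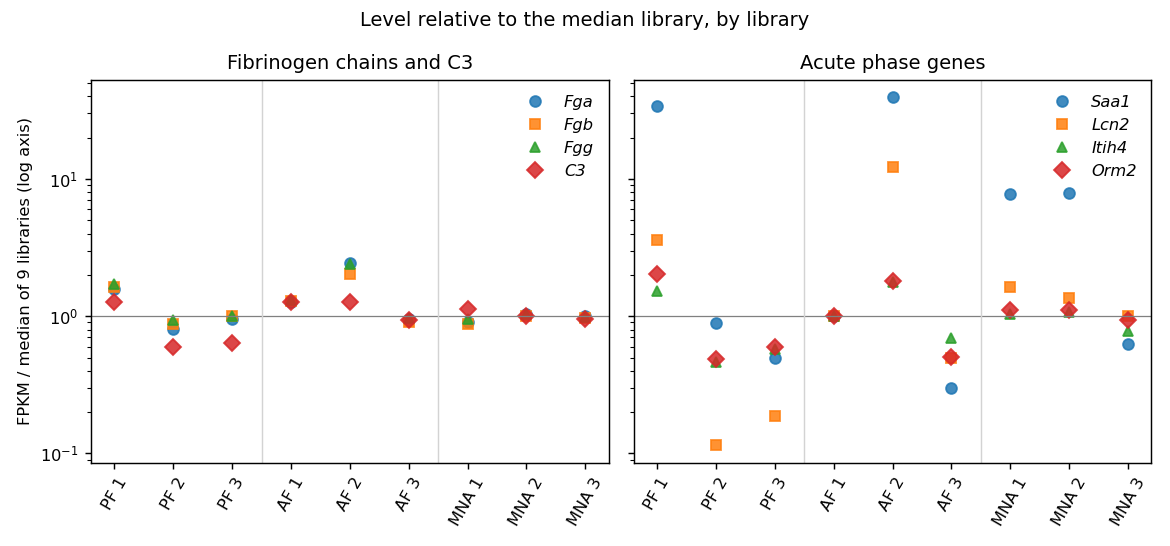
Level of the fibrinogen chains and C3 (left) and of 4 of the 11 acute phase genes (right) in each of the 9 libraries, divided by the median of the 9 libraries (log axis), with MNA for AF with MNA. PF 1 and AF 2 stand highest for the 3 fibrinogen chains and for Saa1, Lcn2, Itih4 and Orm2, while C3 is also high in AF 1.

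The fibrinogen genes form a cluster on chromosome 3, and the sequence before each start is shown because the 3 levels moved together. Capitals mark CTGGGAA, the core of an acute phase response element, and the motifs named above. The regions are chr3:83025903-83026075 (plus) for Fga, chr3:83049864-83050113 (minus) for Fgb and chr3:83007474-83007723 (plus) for Fgg.
Fga: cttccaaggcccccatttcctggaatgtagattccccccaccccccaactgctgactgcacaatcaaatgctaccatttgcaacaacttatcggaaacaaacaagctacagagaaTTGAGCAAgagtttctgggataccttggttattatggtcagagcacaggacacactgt
Fgb: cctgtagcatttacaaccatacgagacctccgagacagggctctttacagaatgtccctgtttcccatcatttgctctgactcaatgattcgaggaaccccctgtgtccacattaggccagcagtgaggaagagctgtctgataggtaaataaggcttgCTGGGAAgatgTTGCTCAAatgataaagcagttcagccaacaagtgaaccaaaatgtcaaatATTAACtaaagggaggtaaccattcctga
Fgg: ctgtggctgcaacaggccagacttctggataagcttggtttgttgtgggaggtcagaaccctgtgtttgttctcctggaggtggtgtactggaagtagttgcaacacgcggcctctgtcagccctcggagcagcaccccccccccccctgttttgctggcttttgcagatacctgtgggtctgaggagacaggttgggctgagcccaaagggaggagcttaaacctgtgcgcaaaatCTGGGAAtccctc
A GTTAAT match of Fga, 43 to 38 bases before its RefSeq start, lies past the end of the stretch shown. CTGGGAA lies 91 to 85 bases before the start of Fgb and 13 to 7 bases before that of Fgg, and it was held by 5 of 35 members and by 9.1% of all windows.

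F11, factor XI of the contact route, was the 1 coagulation member past the threshold of the methods. It was at 7.50, 16.4 and 13.8 FPKM in PF, 5.97, 4.32 and 8.35 FPKM in AF and 6.35, 5.34 and 7.64 FPKM in AF with MNA. The overlap came from PF 1, and the means were 12.6 ± 4.58 and 6.21 ± 2.03 FPKM (SD, n = 3). The log2 FC was -1.02 in AF (limma p 0.0306, adjusted p 0.378) and -0.96 in AF with MNA against PF (limma p 0.0276, adjusted p 0.289). It was no longer past the threshold without AF 1, AF 2, PF 2 or PF 3, or with the limma coefficient as the fold change.

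Serpind1, heparin cofactor II, which inhibits thrombin, was at 182, 177 and 137 FPKM in PF, 224, 190.1 and 204 FPKM in AF and 235, 213 and 200.5 FPKM in AF with MNA. It was the 1 of 18 coagulation members with all 6 alcohol-fed libraries above PF, beside 3.73% of all genes. Its log2 FC was 0.32 in AF (limma p 0.0986, adjusted p 0.517) and 0.38 in AF with MNA (limma p 0.0452, adjusted p 0.335). Pros1, the protein S cofactor of protein C, was at 10.04, 9.44 and 12.3 FPKM in PF, against 14.5, 23.2 and 11.01 in AF, with overlap, and at 13.8, 14.9 and 10.15 FPKM with MNA. Serpinf2, the plasmin inhibitor antiplasmin, was at 132, 117 and 130 FPKM in PF, against 147, 143 and 149 in AF without overlap, and at 159, 115 and 90.7 FPKM with MNA. F5, the cofactor of the protease that makes thrombin, was at 97.2, 90.1 and 92.8 FPKM in PF, against 84.1, 75.6 and 78.5 in AF without overlap.

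The remaining coagulation members other than F9 had log2 FC between -0.18 and 0.23 in AF against PF, and their groups overlapped. F2, prothrombin, was between 194 and 240.2 FPKM over the 9 libraries and F12, the contact factor XII, between 117 and 151 FPKM. F13b, the carrier chain of the enzyme that crosslinks fibrin, was between 43.9 and 54.0 FPKM, and its 3 libraries with MNA lay below PF. The highest library was 1.24 times the lowest for F2, 1.29 times for F12 and 1.23 times for F13b, the narrowest ranges of the coagulation arm. Plg, plasminogen, was between 214 and 288 FPKM, Cpb2, which protects fibrin from plasmin, between 106 and 161 FPKM, and Serpinc1, antithrombin, between 60.9 and 95.2 FPKM. The entry named Proz, which also holds F7 and F10, was between 16.7 and 26.3 FPKM.

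**Figure D3:**
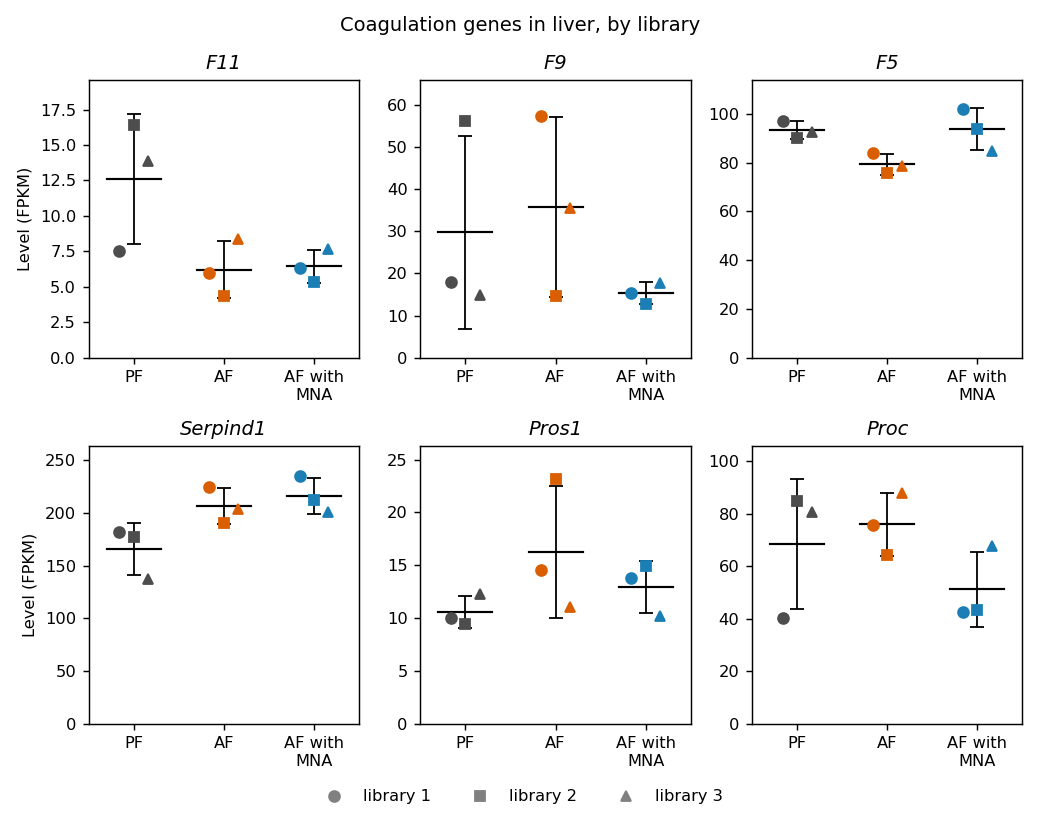
Level in FPKM (vertical axes, from 0) of 6 coagulation genes in the 3 libraries of each group (symbols by library number), with the group mean (line) and SD (bars). Serpind1 lies higher in all 6 alcohol-fed libraries than in PF, F11 overlaps through PF 1, and F9 spans a wide range in PF and AF.

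AF with MNA against AF compares alcohol-fed mice with and without MNA. The groups also differ in strain label, and the AF titles name no injection. MNA, the injection and the label difference cannot be told apart. None of the 42 members passed limma at an adjusted p under 0.05 (0.0491% of 12214 genes did) or the threshold of the methods (1.98%). At an unadjusted limma p under 0.05 there was 1, Proc, beside 5.22% of all genes. Groups did not overlap for 1 complement member, Masp1, a protease of the lectin pathway, and 1 coagulation member, F5, beside 10.1% of all genes. The median log2 FC was 0.04 in complement, -0.11 in coagulation and fibrinolysis and 0.01 over all genes. The complement median was -0.057 without AF 3 and 0.12 without AF 2.

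Proc, the anticoagulant protease protein C, was at 75.6, 64.2 and 88.1 FPKM in AF and 42.5, 43.5 and 67.6 FPKM in AF with MNA, a log2 FC of -0.57 (limma p 0.0393, adjusted p 0.94). PF held both levels, at 40.1, 85.0 and 80.8 FPKM. F9, factor IX, was at 57.5, 14.5 and 35.5 FPKM in AF and 15.5, 12.7 and 17.8 FPKM with MNA, a log2 FC of -1.23 (limma p 0.0736, adjusted p 0.94). With 1 library left out it ran from -1.60 without AF 2 to -0.71 without AF 1. In PF it was at 18.1, 56.2 and 15.0 FPKM, so that 1 library stood high there too. Masp1 was at 8.27, 8.50 and 8.64 FPKM in AF and 7.95, 6.93 and 7.57 FPKM with MNA, with 7.54, 9.30 and 7.99 FPKM in PF. F12 was at 131, 117 and 118 FPKM in AF and 149, 151 and 124 FPKM with MNA, with overlap. F5 was at 102, 93.8 and 85.0 FPKM with MNA, above each AF library and within reach of PF. The fibrinogen chains had log2 FC from -0.67 to -0.57, and without AF 2 these were -0.19 for Fga and -0.21 for Fgb and Fgg. Of the terminal pathway, 5 of 6 genes had a higher mean with MNA, by at most 0.35 on the log2 scale and beside 51.2% of all genes, and the groups of all 6 overlapped.

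AF with MNA against PF used the same PF libraries. None of the 42 members passed the limma adjusted p (0.432% of 12276 genes did), C6 passed the threshold of the methods (3.89%), and 4 complement and 2 coagulation members had an unadjusted limma p under 0.05 (14.5%). These were C6, C1rl, C9, C8a and F11, which were lower (7.94% of all genes), and Serpind1, which was higher (6.52%). Groups did not overlap for 7 of 42 members (21.4% of all genes), and 6 of them were lower in AF with MNA (11.9%), among them C6, C8a, C8g and C9 of the terminal pathway. The mean was lower for 20 of 24 complement members and 8 of 18 coagulation members, beside 52.8% of all genes.

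**Figure D4:**
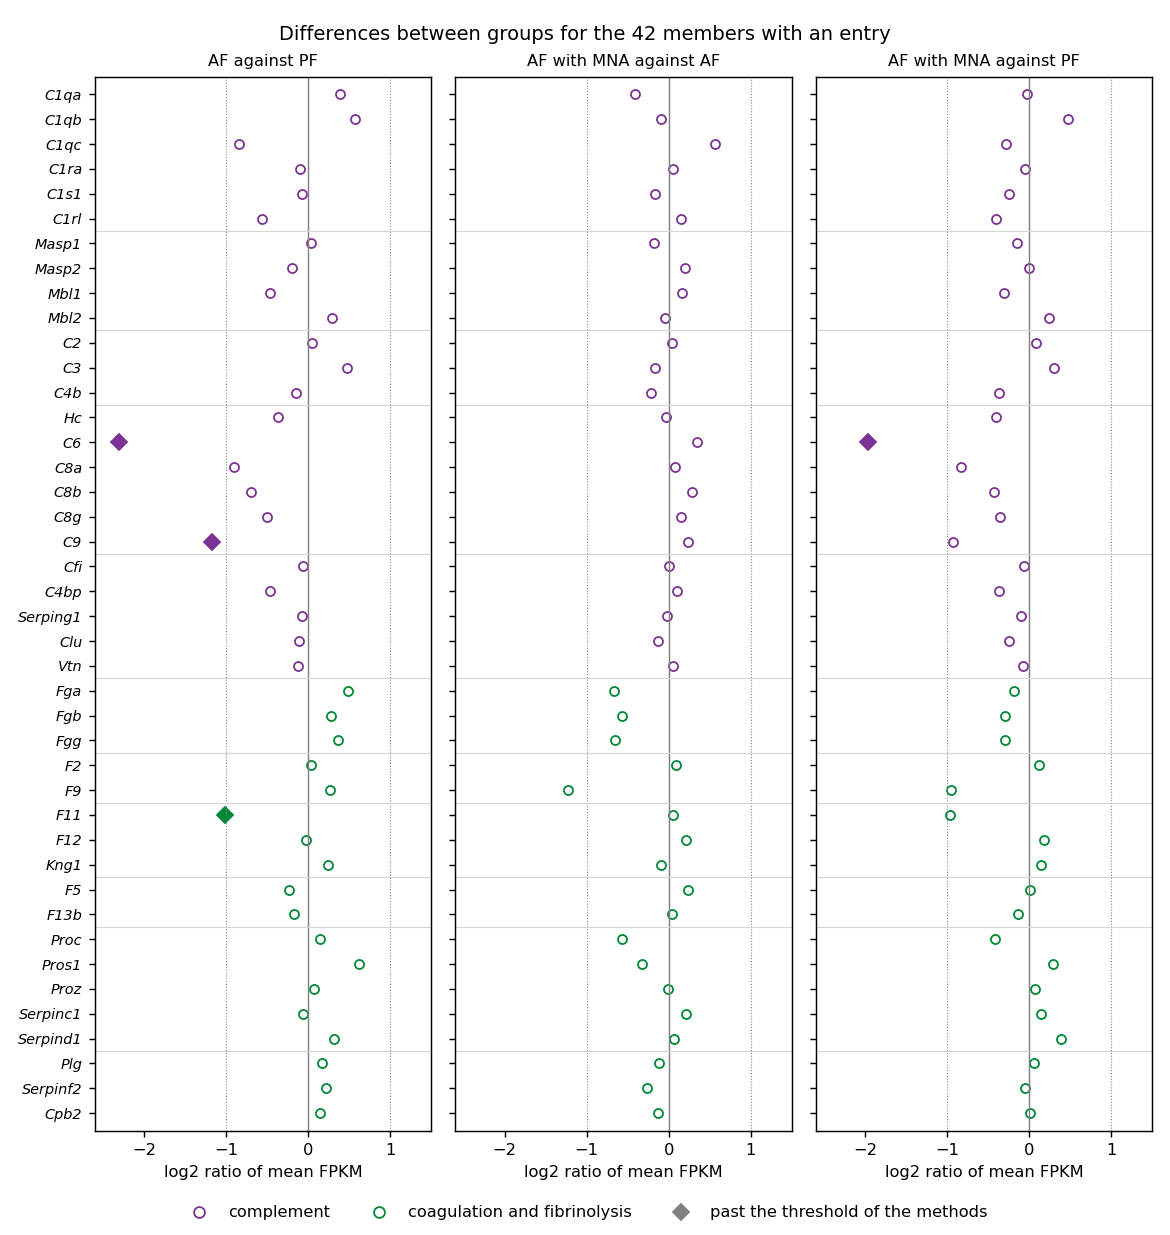
Log2 ratio of the group mean FPKMs (horizontal axes, dotted lines at a ratio of 1 log2 unit) for the 42 members with an entry, ordered by role, in the 3 comparisons. Filled diamonds mark the members past the threshold of the methods, which are C6, C9 and F11 in AF against PF, none in AF with MNA against AF and C6 in AF with MNA against PF.

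Of the other genes of both pathways, from lists of 26 complement and 32 coagulation genes, none passed the limma adjusted p in the 3 comparisons. In AF against PF, 18 of the complement list and 23 of the coagulation list were tested, and the threshold of the methods was passed by 1 of each, both lower, which is near the 4.3% (2.35% as lower) of all genes. C4a was at 17.2, 17.3 and 9.27 FPKM in PF, against 5.19, 9.53 and 4.09 in AF. It is nearly identical to the member C4b, so that the split of reads between them is uncertain, and C4b had a log2 FC of -0.15. Serpine2, a protease inhibitor, was at 1.61, 3.00 and 1.42 FPKM in PF, against 0.62, 0.56 and 0.25 in AF. In AF with MNA against AF none of the listed genes passed the threshold, and in AF with MNA against PF C4a and Serpine2 did, both lower again.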

How the data were processed

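Total liver RNA was depleted of ribosomal RNA and sequenced as 9 strand-specific paired-end libraries, and the submitters' processing notes name cutadapt 1.9, FastQC, HISAT2, TopHat, StringTie 1.3.4 and edgeR. The genome build is not given in the sources used here, and coordinates are those of GENCODE M21 for GRCm38. The authors deposited FPKM values per gene entry of a merged StringTie assembly. The authors also deposited circRNA back-splice junction counts, and read coverage of lncRNA transcripts as a signal that is not scaled for depth. The tables give no gene counts, so precision was judged from the spread between libraries.

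Entries that hold a known transcript and a name (26345) were kept when their mean over both groups reached 0.5 FPKM, and were tested on log2(FPKM + 1) with limma 3.58.1 (two-sided, intensity trend, Benjamini-Hochberg over all genes tested) in R 4.3.3, after a check on simulated data. A log2 FC is the ratio of group mean FPKMs, and the limma estimate is a difference of mean log2(FPKM + 1), in which the pseudocount shrinks differences between low levels and a low library weighs more than in the ratio of means, so that it can be the larger or the smaller of both. Python 3.11.15, pandas 2.3.3, numpy 2.4.6 and matplotlib 3.10.9 were used. Values per library were given for the fibrinogen and C1q chains, C3, members past a threshold and, per role, the smallest p in AF against PF and in AF with MNA against AF; values of other terminal pathway genes, Serpind1, C7, Apcs and single cell type markers were chosen after they were seen. Alternatives were a pseudocount of 0.1, median scaling, no trend, other minimum levels (any value above 0 or 2 FPKM), all 9 libraries in 1 fit, a replicate block, the limma coefficient as fold change, each library left out, and 2 settings added after the data were seen. The members and lists were chosen with earlier results of these data known.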

Additional observations from a re-analysis of the deposited data

Results flagged for a closer look

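The circRNA table, which the comparisons above do not use, held 25 circRNAs from 17 member genes among 4486, with 47 junction reads in all and 22 of the 25 present in 1 library. Those of C8a had 8 junction reads in AF, 5 in AF 2 and 3 in AF 3, and 0 in the 3 PF libraries and in AF with MNA. That of F11 had 4 junction reads in AF, all in AF 3, and 0 in PF and in AF with MNA. In the other direction, that of C9 had 5 junction reads in PF, all in PF 2, and 0 in AF and in AF with MNA. C8a and F11 stood out because their AF reads exceeded those of the PF libraries and the 3 reads that a count of 0 allows, which covers counting error only. None of these differences was tested.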

How the results depend on the processing

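Of 941 values recomputed under the alternatives, 869 kept their direction and call or moved by less than the spread between libraries. C6 passed the threshold of the methods in all 15 alternatives of AF against PF and all 14 of AF with MNA against PF, and no member passed the limma adjusted p in any. In AF against PF, 5 complement members passed the threshold without PF 1 and AF 2 (4.53% of all genes did), and 0 coagulation members with the limma coefficient as the fold change (2.03%). Replicate numbers gave no sign that samples were paired, which does not show that they were not. Correlations were -0.091 to 0.074 for the same number and -0.145 to 0.102 for different numbers. With the replicate block 1 coagulation member, F9, passed in AF with MNA against AF (2.13%). Without AF 3 and AF with MNA 1, the coagulation median there was -0.24 and C4bp was -0.036. The cause was not tested.

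With each library left out in turn, AF against PF gave 1 to 4 complement and 0 to 1 coagulation members past the threshold (4.21 to 6.27% of all genes), a complement median of -0.30 to -0.04, a coagulation median of 0.045 to 0.22, and log2 FC of -3.12 to -2.01 for C6, -1.80 to -0.85 for C9, 0.29 to 0.91 for C3, -3.91 to -0.32 for C1qc, -0.25 to 1.12 for F9, 0.005 to 0.83 for Fga, -0.092 to 0.59 for Fgb and -0.085 to 0.69 for Fgg. C6 alone passed without AF 1 and without PF 2. AF with MNA against AF gave 0 to 1 coagulation members (1.72 to 3.03%), F9 without AF 2, a complement median of -0.057 to 0.12, and -1.60 to -0.71 for F9, -0.92 to -0.19 for Fga, -0.81 to -0.21 for Fgb, -0.90 to -0.21 for Fgg, -0.94 to 0.043 for C1qa, -0.32 to 0.29 for C1qb, -0.48 to 3.62 for C1qc, -0.053 to 0.33 for C4bp and -0.023 to 0.51 for C8b. AF with MNA against PF gave 1 to 3 complement and 0 to 1 coagulation members (3.8 to 4.46%), a complement median of -0.29 to -0.066, a coagulation median of -0.065 to 0.049, and -0.55 to 0.43 for C1qa, -1.32 to 0.19 for C1qc, -0.37 to 0.16 for Fga, -0.47 to 0.018 for Fgb and -0.45 to 0.034 for Fgg. With 3 libraries a group an exact permutation test cannot go below 0.1.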
